A study of Mus musculus with 48 samples.

Results

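The cytosolic ribosomal protein genes are the genes of the structural proteins of the cytosolic ribosome, and here they were followed in the liver of mice with and without the PI3K catalytic subunit p110α in hepatocytes, on 2 diets, fed and fasted. They were chosen by symbol alone, as all genes on the array named Rps, Rpl or Rplp with a number (and a, l, x or y endings), without pseudogenes and without the kinases of the Rps6k family. This gave 83 genes of the 37074 on the array, of which 30 code for proteins of the small subunit, 43 for proteins of the large subunit and 3 for the stalk, and 7 are paralogues whose symbols end in l or l1. The brightest probe of each gene was used. Of the 83 genes, 79 passed the filter on dim probes and were tested among 20486 genes, and each of these 79 was above background on all 48 arrays. The other 4 were Rpl37 (above background on 6 of 48 arrays), Rpl39l (on 1 array), and Rpl3l and Rpl10l (on 0 arrays). The tested set holds 30 small subunit genes, 42 large subunit genes, 3 stalk genes and 4 paralogues.

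Each of the 8 groups held 6 male mice, and each mouse gave 1 array. The p110αhep+/+ mice, called LWT, carried floxed p110α alleles and no Cre, and served as controls. The p110αhep−/− mice, called LKO, carried the floxed alleles and Cre under the albumin promoter, which is active in hepatocytes. Whether other liver cells keep the gene was not tested. From 12 weeks of age, mice of each genotype were given a control diet (CTRL) or a high-fat diet (HFD) with 60% of calories from fat for 12 weeks, and were then either fed ad libitum or fasted for 24 h before they were killed at ZT16, that is 16 h after lights on. The groups are therefore LWT and LKO, CTRL and HFD, fed and fasted, in all combinations. The array's probe for Pik3ca, the gene of p110α, gave no check of the deletion, since where it lies relative to the deleted exons is not known here. It was higher in LKO than in LWT in fed mice (log2 difference 0.39 ± 0.08 (SE) on CTRL and 0.58 ± 0.08 on HFD), by 0.25 ± 0.08 in fasted mice on HFD, and stood at 0.08 ± 0.08 in fasted mice on CTRL (adjusted p = 0.53). The genotypes were therefore taken as the labels give them.

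The ribosome translates messenger RNA into protein. Its small subunit binds the messenger RNA and reads the codons, its large subunit joins the amino acids, and the stalk on the large subunit recruits the translation factors. Ribosomal protein genes are among the most strongly expressed genes of a cell, and as each ribosome needs its proteins in fixed proportions, their messenger RNAs usually move together and by small steps. Many of these messenger RNAs begin with a run of C and T bases, the 5′ terminal oligopyrimidine tract, through which the insulin, PI3K, AKT and mTORC1 pathway adjusts their translation, and which lets the liver couple ribosome production to feeding. The amount of messenger RNA, which arrays measure, and the rate of its translation are different quantities, and translation was not measured here.

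The bases around the annotated start of transcription are shown for genes that the results turn on, to make the pyrimidine runs visible. They come from the RefSeq annotation of GRCm38.p6, run from 15 bases before to 15 bases after the start, and carry the longest run of C and T in capitals. Rps6, Rps18, Rpl13a, Rpl27a, Rpl28 and Rplp0 were called higher in LKO in all 4 genotype contrasts, Rps27 had the largest fasting differences on HFD, and Rps27l was the only member called lower in LKO in any contrast, with quantile normalization.
Rps6 (chr4:86857353-86857382, minus strand): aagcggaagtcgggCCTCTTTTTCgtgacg
Rps18 (chr17:33955651-33955680, minus strand): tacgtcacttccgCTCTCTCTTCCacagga
Rpl13a (chr7:45128731-45128760, minus strand): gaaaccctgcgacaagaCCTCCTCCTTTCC
Rpl27a (chr7:109519180-109519209, plus strand): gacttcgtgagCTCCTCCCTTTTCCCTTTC
Rpl28 (chr7:4792950-4792979, plus strand): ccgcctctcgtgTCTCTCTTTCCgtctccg
Rplp0 (chr5:115559452-115559481, plus strand): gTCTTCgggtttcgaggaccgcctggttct
Rps27 (chr3:90213634-90213663, minus strand): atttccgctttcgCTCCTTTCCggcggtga
Rps27l (chr9:66946071-66946100, plus strand): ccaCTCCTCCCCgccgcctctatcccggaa

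The RefSeq promoter table held 62 of the 83 genes, 58 of them tested. On the strand of the gene, from 15 bases before to 50 bases after the start, a run of at least 8 bases of C or T was present in 44 of these 58 genes (75.9%) and in 7103 of all 27025 genes of the table (26.3%). The letters CTCTTT, which lie inside such runs, occurred in the same window in 17 of the 58 (29.3%) and in 2.73% of all genes. CCGGAAG, the core of many ETS factor sites, searched on both strands from 250 bases before to 50 after the start, was found in 23 of the 58 (39.7%) and in 9.93% of all genes. The pyrimidine run did not separate the members by their response: it was present in 12 of the 16 genes called higher in LKO in all 4 genotype contrasts, in 9 of 10 called in 3, in 8 of 13 called in 2, in 8 of 10 called in 1 and in 7 of 9 called in none. Rplp0, Rps3, Rps16 and Rps28 were called in all 4 and had no such run in this window. These are matches of letters, and no use of any site was measured.

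For some members the mapped position of the probe is not that of the gene, and which transcripts such a probe binds was not tested. Ribosomal protein genes have many processed copies in the genome, and 2 of the 83 probes lie on another chromosome than the gene they are named after. The probe of Rps27 lies on chromosome 9 (mm9 chr9:114891517-114891576), where RefSeq lists Rps27rt, a protein-coding copy of Rps27, whereas Rps27 itself is on chromosome 3, so that these 2 genes cannot be told apart. The probe of Rps29 lies on chromosome 2 (mm9 chr2:172335021-172335079), and the gene on chromosome 12. The 1 probe of Rps29 on chromosome 12 (mm9 chr12:70259405-70259464) was the dimmest of its 4 probes kept. It was called higher in LKO in fasted mice on HFD (0.32 ± 0.08, adjusted p = 0.002), where the probe used stood at 0.05 ± 0.05, and in no other of the 12 contrasts. The probe used was called higher in LKO in fasted mice on CTRL (0.17 ± 0.05, adjusted p = 0.011), where the probe on chromosome 12 stood at 0.13 ± 0.08. The probe used was also called lower on fasting in LWT on CTRL (-0.15 ± 0.05, adjusted p = 0.020) and on HFD in fed LWT (-0.14 ± 0.05, adjusted p = 0.032). In these the probe on chromosome 12 stood at -0.01 ± 0.08 and -0.04 ± 0.08. The probe of Rps2 lies on the chromosome of its gene but not at the gene. It starts at 42864841 on chromosome 17 in mm9 and the gene at 24718121 in GRCm38.p6, which is 18.1 Mb apart by number, whereas for the other 7 members on that chromosome the numbers of the 2 builds differ by at most 0.145 Mb. For 57 tested members a second probe also passed the filter, and it gave a difference of the same sign in 52 to 56 of 57 members in the genotype contrasts, in 57 of 57 in both diet contrasts of fed mice, in 45 and 41 of 57 in those of fasted LWT and LKO, and in 36 to 55 of 57 in the fasting contrasts.

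The mean over the 79 members, each first set to 0 at its own mean over the 48 arrays, describes every mouse by 1 log2 value. Without p110α this mean was higher on both diets. In fasted mice on CTRL it was lowest at -0.13, with a median of -0.08 and a highest of -0.04, in LWT, against 0.05, 0.11 and 0.13 in LKO. In fasted mice on HFD it was -0.14, -0.09 and -0.03 in LWT against 0.00, 0.02 and 0.16 in LKO. In fasted mice, no LWT mouse reached the range of the LKO mice of the same diet. Fed mice on CTRL lay at 0.00, 0.02 and 0.10 in LWT and at 0.08, 0.12 and 0.28 in LKO, and those on HFD at -0.20, -0.14 and -0.04 in LWT and at -0.09, -0.04 and 0.05 in LKO. The genotypes overlapped in fed mice of both diets, and in fed mice each HFD group lay below the CTRL group of its genotype without overlap. The differences were small, and no member passed a fold of 1.5 in any contrast.

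**Figure D1:**
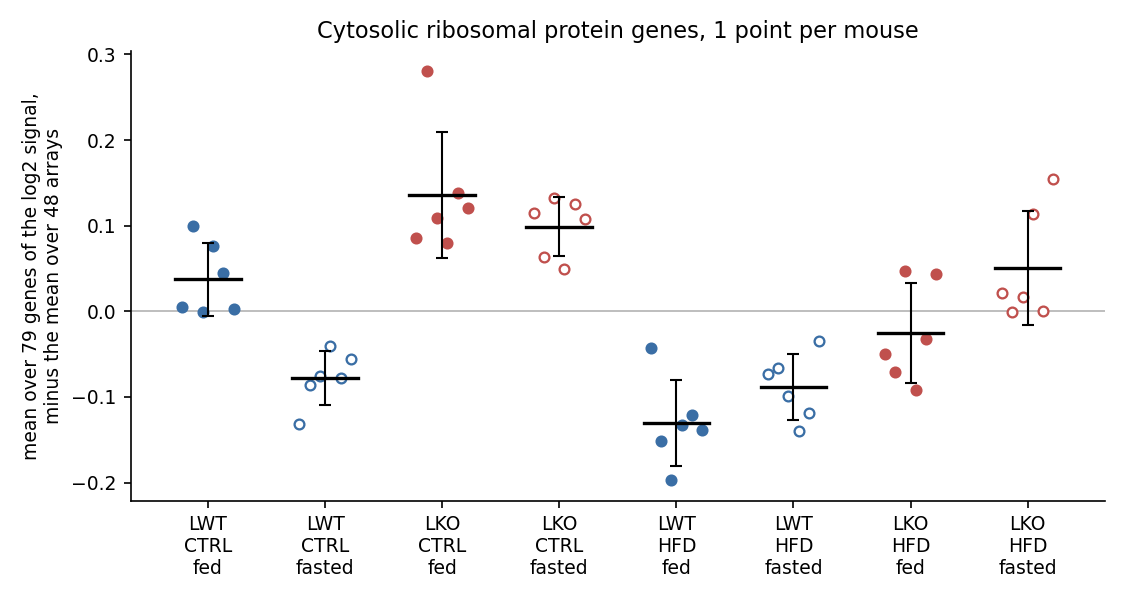
Mean over the 79 tested ribosomal protein genes of the log2 signal, each gene minus its mean over the 48 arrays, with 1 point per mouse (filled fed, open fasted, blue LWT, red LKO). The bars give the mean and SD of 6 mice; the LKO points of fasted mice lie above all LWT points of the same diet, and 1 fed LKO mouse on CTRL, at 0.28, stands apart from its group.

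Loss of p110α went with more ribosomal protein messenger RNA in fasted liver. In fasted mice on CTRL, 64 of 79 members were called higher in LKO and 1 lower (limma, adjusted p of at most 0.05 over all probes), against 12.5% and 12.3% of all 20486 genes, and the median difference was 0.17, or 12.8% more signal. In fasted mice on HFD, 50 members were called higher and none lower, against 19.1% and 17.7% of all genes, with a median of 0.15 (11.3%), and 58 of the 79 had an unadjusted p under 0.05. Both subunits took part. On CTRL, 26 of 30 small subunit genes and 36 of 42 large subunit genes were called higher, and on HFD 20 of 30 and 29 of 42. The 6 LWT and 6 LKO arrays did not overlap for 53 of 79 members on CTRL (10.3% of all genes) and for 33 on HFD (14% of all genes).

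In fed mice the same contrast gave smaller medians. On CTRL, 27 of 79 members were called higher in fed LKO and 1 lower, against 10.9% and 10.6% of all genes, with a median of 0.10. On HFD, 32 were called higher and 1 lower, against 16.6% and 16.3% of all genes, again with a median of 0.10. The 1 member called lower in each was Rps27l, as in fasted mice on CTRL, and no call of it held under the other scalings described below. These fed counts lean on the estimate of spread from all 8 groups: with only the 2 groups of each contrast in the fit, 11 members were called on CTRL and 18 on HFD. They were larger under the other scalings, where 70 members on CTRL and 56 on HFD were called with median scaling, and 58 and 67 with the processed signal, all higher, with medians of 0.20 and 0.18 and of 0.18 and 0.20. They also differed between the washing batches in which the arrays were processed, since the mean over members was 0.03 higher in LKO in batch 1 and 0.16 in batch 2 on CTRL, and 0.05 and 0.16 on HFD, with 0 and 7 members called within the batches on CTRL and 2 and 14 on HFD. In fasted mice the batches gave 0.18 and 0.18 on CTRL and 0.10 and 0.18 on HFD.

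Other genes as bright as the members were also called often. The 1295 other genes lay within the range of mean log2 signal of the members without the paralogues, 13.7 to 17.2. They were called in 44.5% of cases in fasted mice on CTRL, where 82.3% of all tested members were, and in 56.1% on HFD, where 63.3% were. In fed mice 44.3% of these other genes were called on CTRL against 35.4% of members, and 52.5% on HFD against 41.8%, but the order of these fed shares turned with the scaling, to 46.3% of other genes against 88.6% of members on CTRL and 53.7% against 70.9% on HFD with median scaling, and to 45.2% against 73.4% and 58.1% against 84.8% with the processed signal. With quantile normalization the medians of these other genes lay between -0.04 and 0.02 in the 4 genotype contrasts, below the 0.10 to 0.17 of the members.

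**Figure D2:**
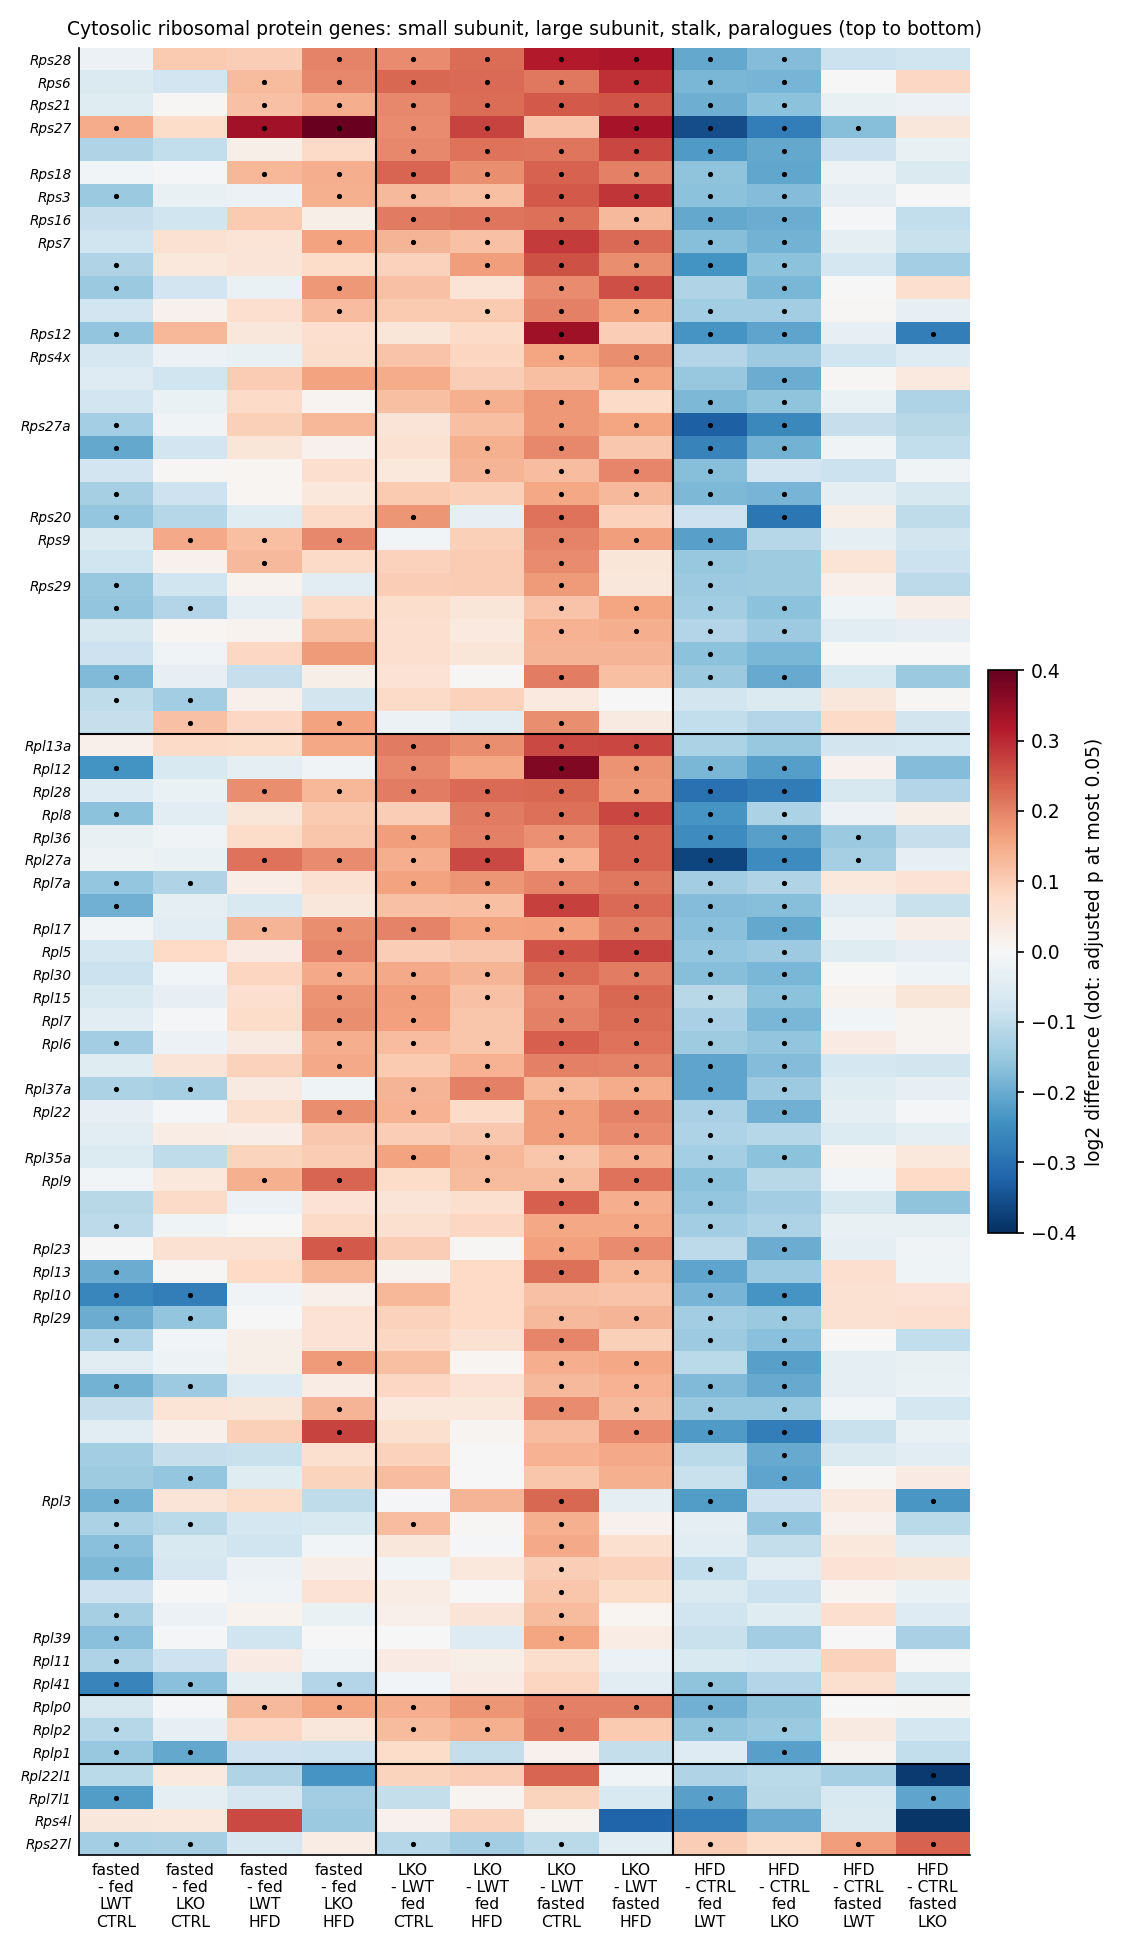
Log2 difference of each of the 79 tested members in the 4 fasting, 4 genotype and 4 diet contrasts, as coloured cells, with a dot where the adjusted p was at most 0.05 and names beside the rows of genes described in the text. Genes are ordered within small subunit, large subunit, stalk and paralogues by their mean genotype difference; the genotype block is mostly red and the diet block of fed mice mostly blue, while Rps27l has the opposite colours with this normalization.

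Among the small subunit genes, Rps6 codes for the classical substrate of S6 kinase, which acts downstream of mTORC1. Its log2 signal in fasted mice on CTRL was lowest at 14.94, with a median of 15.02 and a highest of 15.08, in LWT, and 15.13, 15.21 and 15.33 in LKO. On HFD the fasted values were 14.97, 15.01 and 15.10 in LWT and 15.23, 15.31 and 15.39 in LKO. Thus all LKO mice lay above all LWT mice in the fasted state. Rps6 was called higher in LKO in all 4 contrasts, by 0.23 ± 0.04 (SE) in fed mice on CTRL (adjusted p = 0.00018), 0.23 ± 0.04 in fed mice on HFD (0.0001), 0.21 ± 0.04 in fasted mice on CTRL (0.00026) and 0.29 ± 0.05 in fasted mice on HFD (adjusted p = 2.7e-06).

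Rps28, a small protein at the exit of the messenger RNA channel, had the largest mean genotype difference of the members called in all 4 contrasts. In fasted mice on CTRL it stood at 15.46, 15.55 and 15.62 (lowest, median and highest log2 signal) in LWT and at 15.79, 15.88 and 15.93 in LKO, and on HFD at 15.41, 15.46 and 15.60 against 15.68, 15.77 and 15.96. The genotypes did not overlap on either diet, and the difference was 0.32 ± 0.05 on both (adjusted p = 1.6e-06 on CTRL and 2.2e-06 on HFD). Rps12 was 1 of 14 members called in a single genotype contrast, in its case in fasted mice on CTRL, where LWT mice ranged from 15.36 to 15.54 around a median of 15.46 and LKO mice from 15.67 to 15.93 around 15.80. This amounted to 0.34 ± 0.06 (adjusted p = 1.5e-05), next to 0.05 ± 0.06 and 0.08 ± 0.06 in fed mice on CTRL and HFD and 0.10 ± 0.06 in fasted mice on HFD. Other small subunit genes called higher in all 4 genotype contrasts included Rps3, Rps7, Rps16, Rps18 and Rps21. Of these, Rps18 and Rps21 differed by 0.19 to 0.24 and 0.19 to 0.25.

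In the large subunit, Rpl12, which lies at the base of the stalk, had the largest genotype difference of any member. In fasted mice on CTRL its log2 signal was 14.85, 14.96 and 15.01 (lowest, median and highest) in LWT and 15.10, 15.40 and 15.54 in LKO, without overlap, a difference of 0.37 ± 0.06 (adjusted p = 1.7e-05). It was also called in fed mice on CTRL (0.19 ± 0.07) and in fasted mice on HFD (0.18 ± 0.07), and stood at 0.16 ± 0.07 in fed mice on HFD. Rpl13a, Rpl15, Rpl17, Rpl27a, Rpl28, Rpl30, Rpl35a, Rpl36, Rpl37a, Rpl6 and Rpl7a were called higher in all 4 genotype contrasts. Among these, Rpl13a, which also has a role in the translational silencing of inflammatory messenger RNAs, differed by 0.18 to 0.27. Rpl5, which with Rpl11 can bind MDM2 when ribosome assembly is disturbed, was called higher in fasted LKO mice by 0.25 ± 0.04 on CTRL and by 0.27 ± 0.04 on HFD, whereas Rpl11 was called in no genotype contrast, with differences of -0.02 to 0.07. In all, 20 members were called higher in LKO in 4 genotype contrasts, 13 in 3, 20 in 2, 14 in 1 and 12 in none. The contrasts of the 2 states and diets use different mice, but each group also enters a fasting and a diet contrast.

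The 3 stalk genes were called in 4, 3 and 0 of the genotype contrasts. Rplp0, the anchor of the stalk on the ribosome, was called higher in LKO in all 4 contrasts, by 0.14 ± 0.05 (adjusted p = 0.047) and 0.18 ± 0.05 (0.0096) in fed mice on CTRL and HFD and by 0.20 ± 0.05 in fasted mice on both diets (0.0029 and 0.0033). In fed mice on CTRL 6 of 14 other processing settings did not call it, with differences of 0.06 to 0.27 over all 14. Its log2 signal in fasted mice on CTRL was 15.34, 15.44 and 15.49 (lowest, median and highest) in LWT and 15.52, 15.67 and 15.73 in LKO, without overlap. Rplp2, which together with Rplp1 forms the mobile arms of the stalk, was called higher in LKO in fed mice on both diets (0.13 ± 0.04 and 0.14 ± 0.04) and in fasted mice on CTRL (0.21 ± 0.04). Its call in fed mice on CTRL is the least firm of these, at an adjusted p of 0.038, since 9 of 14 other processing settings did not call it, with differences of 0.05 to 0.21 over all 14. Rplp1, its partner in these arms, had genotype differences of -0.10 to 0.07 and was called in none of the 4. Whether Rplp1 differs from Rplp2 in its response was not tested.

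**Figure D3:**
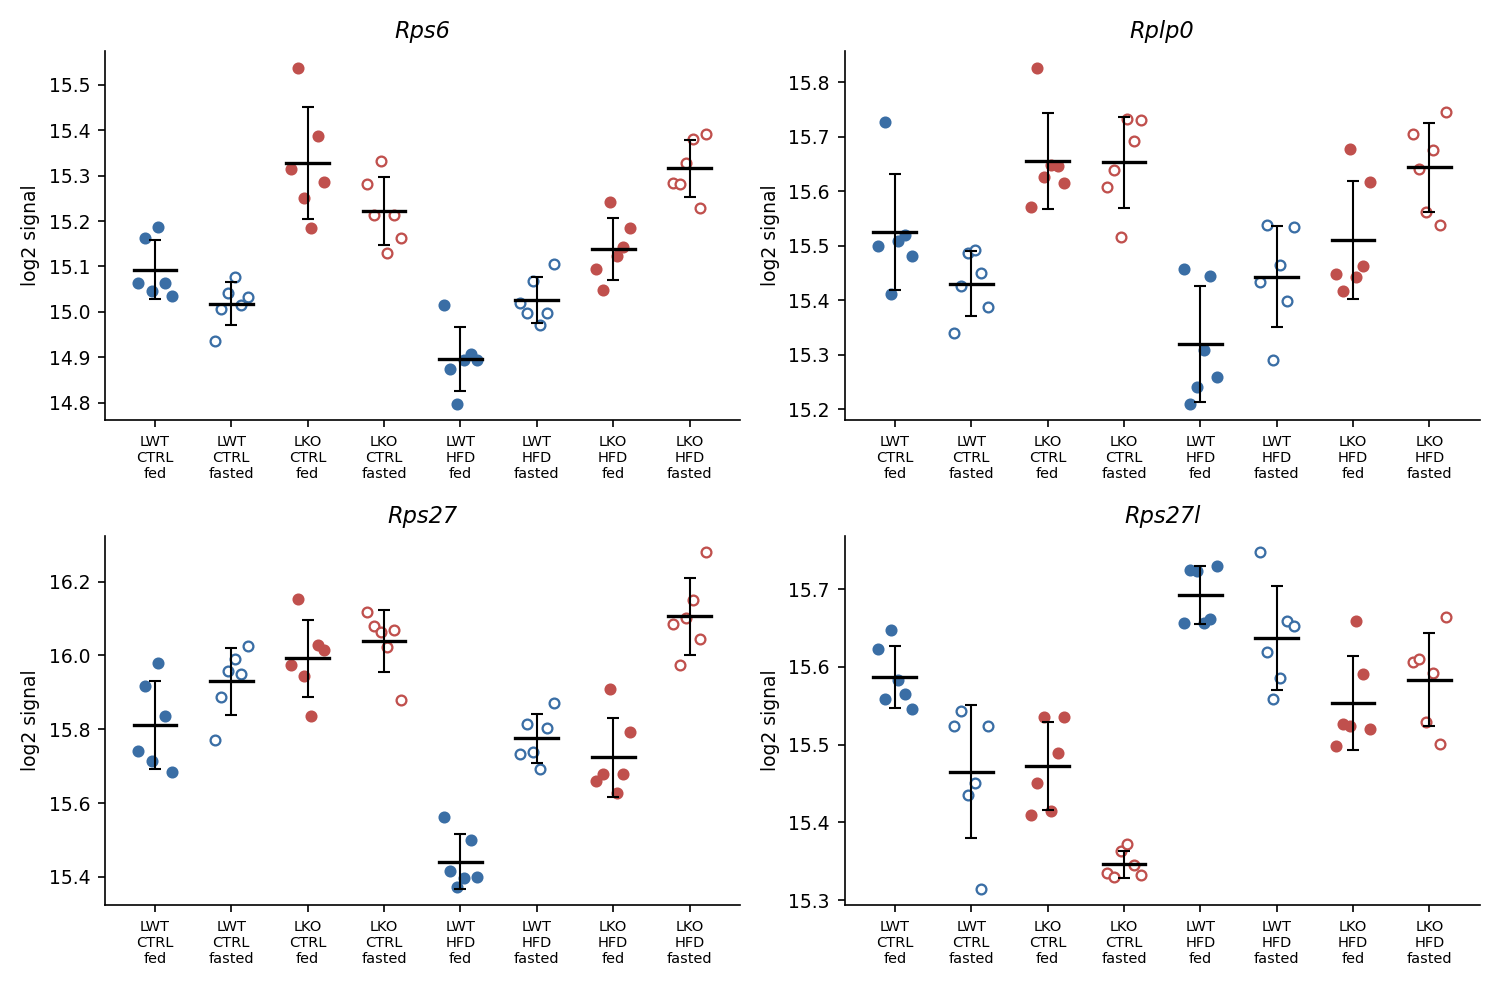
Log2 signal of Rps6, Rplp0, Rps27 and Rps27l in each mouse (filled fed, open fasted, blue LWT, red LKO), with the mean and SD of 6 mice per group, each panel with its own axis. Rps6 and Rplp0 are higher in LKO on both diets, Rps27 also rises on fasting on HFD, and Rps27l is lower in LKO on CTRL and higher on HFD in fasted mice, differences that were not called under the other scalings.

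The high-fat diet went with less ribosomal protein messenger RNA in fed liver, in both genotypes. In fed LWT mice, 58 of 79 members were called lower on HFD and 1 higher, against 11.7% and 12.4% of all genes, with a median of -0.15. In fed LKO mice, 53 were called lower and none higher, against 6.38% and 5.82% of all genes, with a median of -0.16, or 10.8% less signal, and 69 of the 79 had an unadjusted p under 0.05. In LWT the calls took in 24 of 30 small and 31 of 42 large subunit genes, and in LKO 22 of 30 and 29 of 42. Arrays of the 2 diets did not overlap for 35 members in fed LWT (9.51% of all genes) and for 13 in fed LKO (3.9% of all genes). Other genes of the same brightness had medians of -0.01 and 0.02 and were called in 42.2% and 30.4% of cases, against 74.7% and 67.1% of members.

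Rpl27a had the largest diet difference in fed mice. Its log2 signal in fed LWT mice was 14.97, 15.11 and 15.22 (lowest, median and highest) on CTRL and 14.66, 14.72 and 14.82 on HFD, without overlap, so that it fell by 0.37 ± 0.04 on the log2 scale (adjusted p = 2.9e-08), and it was also lower on HFD in fed LKO (-0.25 ± 0.05) and in fasted LWT (-0.13 ± 0.04). Rpl28 stood at 16.09, 16.16 and 16.28 on CTRL and at 15.75, 15.87 and 15.96 on HFD in fed LWT, and at 16.29, 16.32 and 16.58 against 15.98, 16.10 and 16.16 in fed LKO. It did not overlap between diets in either genotype and was lower on HFD by -0.30 ± 0.04 in LWT and -0.28 ± 0.05 in LKO. Rps20 was called in fed LKO (-0.29 ± 0.06, adjusted p = 0.00058) and stood at -0.08 ± 0.05 in fed LWT. Leaving out replicate 2 of the fed LKO mice on HFD lowered the count in fed LKO from 53 to 29, and without the groups of the other contrasts in the fit it was 10. The mean over members was lower on HFD in both washing batches, by -0.18 and -0.15 in LWT and by -0.16 and -0.16 in LKO.

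In fasted mice few members differed between the diets with quantile normalization. In LWT 3 members were called lower on HFD (Rpl27a, Rpl36 and Rps27) and 1 higher (Rps27l), against 6.97% and 8.96% of all genes, and in LKO 4 lower (Rpl22l1, Rps12, Rpl3 and Rpl7l1) and 1 higher (Rps27l), against 5.18% and 5.65%, with medians of -0.02 and -0.03. Rps12, with 15.67, 15.80 and 15.93 on CTRL and 15.41, 15.53 and 15.60 on HFD in fasted LKO, was lower on HFD without overlap (-0.28 ± 0.06, adjusted p = 0.002). Without fasted LWT replicate 6 on CTRL or replicate 4 on HFD 2 members were called in LWT, and in LKO 8 without fasted replicate 4 on CTRL, 8 without fasted replicate 4 on HFD and 9 without fasted replicate 6 on HFD. The number called in fasted mice depends on how the arrays are scaled to each other: with median scaling in place of quantile normalization 33 members in LWT and 45 in LKO were called, all lower on HFD. That is 41.8% and 57% of the members, against 30.9% and 29.9% of the 1295 other genes of the same brightness, whose medians of -0.10 and -0.13 were near the -0.12 and -0.17 of the members. With the processed signal 57 and 50 members were called, all lower. These were 72.2% and 63.3% of the members, against 43.3% and 33.1% of the other genes. The medians there were -0.16 and -0.17 for the members and -0.13 and -0.13 for the other genes. The difference between the diets was itself smaller in fasted than in fed mice. The diet by fasting interaction was positive for 78 of 79 members in LWT, with a median of 0.14 and 8 called (2.36% of all genes in either direction), and for 72 of 79 in LKO, with a median of 0.11 and 12 called (7.9% of all genes). Rpl27a, Rpl29 and Rpl7a were called in both genotypes, and the largest values were Rpl13 in LWT (0.28 ± 0.07, adjusted p = 0.019) and Rps27 in LKO (0.32 ± 0.08, adjusted p = 0.0058). With median scaling 0 and 1 of these interactions were called and the medians were 0.10 and 0.07. In LWT the count fell to 4 without fed replicate 5 on CTRL, fed replicate 2 or 6 on HFD or fasted replicate 2 on HFD, and to 5 without fasted replicate 3 or 5 or fed replicate 6 on CTRL. In LKO it fell to 5 without fed replicate 2 or fasted replicate 6 on HFD, to 6 without fasted replicate 4, fed replicate 2 or fed replicate 3 on CTRL, and to 7 without fasted replicate 4 or fed replicate 4 or 5 on HFD.

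The fasting differences of the members were small, and their median on CTRL changed sign with the scaling of the arrays. With quantile normalization 17.7% of the members in LKO on CTRL and 13.9% in LWT on HFD were called in either direction, below the 35.4% and 28.4% of all genes. In the same fit, 36 of 79 members were called lower and 1 higher on fasting in LWT on CTRL, against 16.5% and 16% of all genes, with a median of -0.11, whereas 1 lower and 4 higher were called with median scaling and 1 lower and 6 higher with the processed signal scaled to the 75th percentile, with medians of 0.02 and 0.03. In LKO on CTRL, 12 were called lower and 2 higher, against 19.1% and 16.4% of all genes, with a median of -0.02, which became 25 and 35 called, all higher, with medians of 0.10 and 0.11 under the other scalings. On HFD no scaling turned the direction. There 11 members were called higher and none lower in LWT (13.8% and 14.7% of all genes, median 0.04, and unadjusted p under 0.05 for 17 of 79), and 27 higher and 1 lower in LKO (13.9% and 14.6%, median 0.08). The number called on HFD depends on the scaling: with median scaling 39 were called in LWT and 52 in LKO, all higher, with medians of 0.13 and 0.18, and with the processed signal 44 higher in LWT and 46 higher and 1 lower in LKO, with medians of 0.13 and 0.16. Genes as bright as the members were called in a larger share in each of the 4 contrasts with quantile normalization. Of the 1295 other genes of the same brightness, 52%, 50.8%, 43.1% and 46.4% were called in either direction in LWT and LKO on CTRL and in LWT and LKO on HFD, against 46.8%, 17.7%, 13.9% and 35.4% of the members. On HFD with median scaling the shares were 44.2% of other genes against 49.4% of members in LWT and 42.7% against 65.8% in LKO, and with the processed signal 48.2% against 55.7% and 42.6% against 59.5%. In no member were all 4 fasting contrasts called in the same direction.

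The members were also set against genes of the same brightness under each scaling, a comparison added after the data had been seen. A shift that bright genes share cancels in this distance by construction, so its likeness between the scalings is no sign of stability. On fasting in LWT on CTRL the median of the members lay 0.06 below that of the 1295 other genes with quantile normalization, 0.06 below with median scaling and 0.05 below with the processed signal. The members lay 0.02, 0.03 and 0.03 above the other genes in LKO on CTRL, 0.04, 0.04 and 0.04 above in LWT on HFD, and 0.11, 0.13 and 0.14 above in LKO on HFD. In the genotype contrasts the distance was 0.12, 0.13 and 0.13 in fed mice on CTRL, 0.08, 0.09 and 0.07 in fed mice on HFD, 0.21, 0.23 and 0.23 in fasted mice on CTRL and 0.18, 0.18 and 0.19 in fasted mice on HFD. For the diet in fed mice the members lay below the other genes, by -0.14, -0.14 and -0.13 in LWT and by -0.18, -0.19 and -0.18 in LKO, and in fasted mice the distance was within -0.04 and -0.02.

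**Figure D4:**
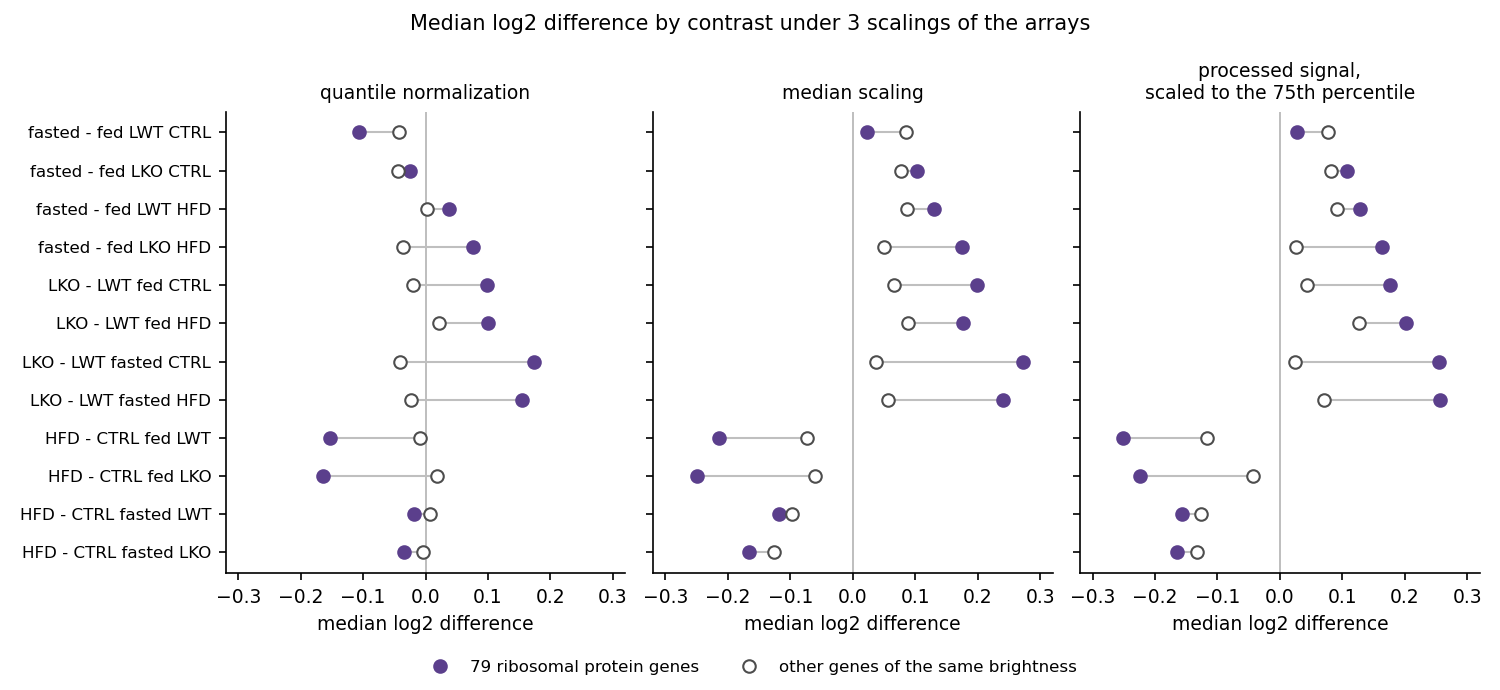
Median log2 difference of the 79 members (filled) and of 1295 other genes of the same brightness (open) in 12 contrasts, with quantile normalization, median scaling and the processed signal scaled to the 75th percentile. Both medians move together between the panels, so that on fasting on CTRL the members are below 0 in the first panel and above 0 in the others, and the distance between the points changes by at most 0.03.

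Rpl10, which joins the large subunit late in its maturation, and Rpl41, which codes for a very short peptide, had the largest falls on fasting in LWT on CTRL with quantile normalization. The log2 signal of Rpl10 in LWT on CTRL was 17.26, 17.32 and 17.39 (lowest, median and highest) fed and 16.94, 17.07 and 17.17 fasted, and in LKO 17.32, 17.42 and 17.63 fed and 17.05, 17.15 and 17.30 fasted. The states did not overlap in either genotype, and it fell by 0.26 ± 0.05 (adjusted p = 9.4e-05) and 0.28 ± 0.05 (4.6e-05) on the log2 scale, while on HFD it stood at -0.01 ± 0.05 in LWT and 0.02 ± 0.06 in LKO. Under median scaling Rpl10 stood at -0.11 in LWT (adjusted p = 0.072) and -0.04 in LKO (0.56), so that its calls on CTRL were lost. Rpl41 fell by 0.26 ± 0.04 in LWT and 0.17 ± 0.04 in LKO on CTRL with quantile normalization, and stood at -0.08 and 0.02 under median scaling, neither called. Rplp1 was called lower on fasting in LWT (-0.15 ± 0.06) and LKO (-0.21 ± 0.06) on CTRL, and stood at 0.00 and -0.04 under median scaling.

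On HFD, Rps27 had the largest rise on fasting. Its log2 signal was 15.37, 15.41 and 15.56 (lowest, median and highest) in fed and 15.69, 15.77 and 15.87 in fasted LWT, and 15.63, 15.68 and 15.91 in fed and 15.97, 16.09 and 16.28 in fasted LKO, without overlap. The rises were 0.34 ± 0.05 and 0.40 ± 0.06 (adjusted p = 1.1e-06 for both), or 26.2% and 31.6%, and it also rose in LWT on CTRL (0.15 ± 0.05, adjusted p = 0.023), where most members did not. A second probe, also on chromosome 9, gave 0.38 ± 0.05 and 0.46 ± 0.06 on HFD. Rpl27a (0.22 ± 0.04) and Rpl28 (0.19 ± 0.04) in LWT and Rpl23 (0.25 ± 0.06), Rps28 (0.20 ± 0.05) and Rps6 (0.19 ± 0.05) in LKO were among the others that rose on fasting on HFD. Without replicate 2 of the fed LKO mice on HFD 16 members were called on fasting in LKO on HFD, and without replicate 6 of the fasted ones 17. Without replicate 6 of the fed LWT mice on HFD 7 were called in LWT on HFD.

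The genotype by fasting interaction, the genotype difference in fasted minus that in fed mice, passed the test in few members. On CTRL it was positive for 67 of 79 members, with a median of 0.07, and 2 were called, Rps12 (0.29 ± 0.08, adjusted p = 0.036) and Rps9 (0.21 ± 0.06, adjusted p = 0.04), against 3.92% of all genes in either direction. The median came mostly from 1 washing batch, at 0.13 within batch 1 and 0.02 within batch 2, with 0 members called within either, and 6 of 14 other processing settings did not call Rps12 and 7 of 14 did not call Rps9. Rps12 was lower on fasting in LWT (-0.16 ± 0.06) and stood at 0.13 ± 0.06 in LKO (adjusted p = 0.075), while Rps9 rose in LKO (0.15 ± 0.04) and stood at -0.06 ± 0.04 in LWT. Leaving out single arrays on CTRL moved the count between 0 and 4. It was 0 without replicate 3 of any of the 4 groups, without replicate 5 of fed LWT, fed LKO or fasted LKO, or without fasted LWT replicate 1, and 4 without fed LKO replicate 2. It was 1 without fasted LKO replicate 1, fed LKO replicate 1, 4 or 6, fasted LWT replicate 2, 5 or 6, or fed LWT replicate 1 or 4. On HFD the median was 0.06 and limma called none, against 3.37% of all genes, with 7 members at an unadjusted p under 0.05, and the medians within the washing batches were 0.05 and 0.02. The genotype difference did not change detectably with the diet: none was called in fed mice (2.83% of all genes, 2 members at an unadjusted p under 0.05) or fasted mice (4.96%, 10 members), with medians of 0.00 and -0.01.

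The 4 tested paralogues differed in the contrasts in which they were called, and Rps4l was not called in any contrast. Rps27l, a paralogue of Rps27 that p53 induces, was called lower in LKO with quantile normalization, by -0.11 ± 0.04 (adjusted p = 0.032) and -0.14 ± 0.04 (0.0049) in fed mice on CTRL and HFD and by -0.11 ± 0.04 (0.03) in fasted mice on CTRL, and stood at -0.04 ± 0.04 (0.46) in fasted mice on HFD. In fed mice on CTRL, LWT ranged from 15.55 to 15.65 around a median of 15.57 and LKO from 15.41 to 15.54 around 15.47, without overlap. None of these 3 calls held under median scaling, where the differences were -0.01, -0.06 and -0.02, or with the processed signal (-0.03, -0.03 and -0.02). Rps27l was likewise called higher on HFD in fasted LWT (0.17 ± 0.04) and fasted LKO (0.24 ± 0.04), where the 15.33, 15.34 and 15.37 of CTRL did not reach the 15.50, 15.60 and 15.66 of HFD, but stood at 0.03 and 0.10 under median scaling, neither called. Its differences on HFD in fed LWT (0.10 ± 0.04) and on fasting on CTRL (-0.14 ± 0.04 in LWT and -0.13 ± 0.04 in LKO) were lost in the same way, at 0.03, 0.02 and 0.00 under median scaling. Rps27 was called lower on HFD in fed LWT by -0.36 ± 0.05 (adjusted p = 1.1e-06).

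Rpl22l1, the paralogue of Rpl22, was called only on HFD in fasted LKO, where it ranged from 12.88 to 13.25 around 13.07 against 13.13 to 13.81 around 13.52 on CTRL, a difference of -0.38 ± 0.10 (adjusted p = 0.0094) between groups that overlap. Rpl22 was called higher in LKO in 3 genotype contrasts (0.14 ± 0.04 in fed mice on CTRL, 0.17 ± 0.04 and 0.20 ± 0.04 in fasted mice). Rpl7l1 was lower on fasting in LWT on CTRL (-0.22 ± 0.05), on HFD in fed LWT (-0.22 ± 0.05) and on HFD in fasted LKO (-0.21 ± 0.05), and was called in no genotype contrast, whereas Rpl7 was called higher in LKO in 3. Rps4l, with standard errors of 0.16 to 0.19, was called in none of the 12 contrasts, and Rps4x was higher in fasted LKO mice (0.16 ± 0.05 and 0.19 ± 0.05). Rpl3 was called higher in LKO in fasted mice on CTRL (0.23 ± 0.06) and Rpl39 likewise (0.16 ± 0.05), and their paralogues Rpl3l and Rpl39l, like Rpl10l, were not tested.

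Other genes of translation, taken as lists, were described by counts and medians. Of 5 ribosomal proteins or partners outside the naming rule, Rpsa, a small subunit protein, was higher in LKO in all 4 genotype contrasts (0.16 ± 0.05 to 0.27 ± 0.05), while Rpl36al fell by 0.45 ± 0.05 on fasting in LWT on CTRL. Among 69 tested genes of ribosome biogenesis, 30 were called higher in LKO and 1 lower in fasted mice on CTRL and 35 and 3 on HFD, with medians of 0.15 and 0.18, against 7 and 3 on CTRL and 10 and 6 on HFD in fed mice. Of all genes tested, 12.5% were called higher and 12.3% lower in LKO in fasted mice on CTRL and 19.1% and 17.7% on HFD, and 10.9% and 10.6% on CTRL and 16.6% and 16.3% on HFD in fed mice. In fasted mice the other scalings gave nearly the same split, with 31 and 1 on CTRL and 32 and 3 on HFD under median scaling. Nop58 (0.54 ± 0.11), a core protein of the box C/D small nucleolar particles, and Gnl3 (0.50 ± 0.11), the nucleolar protein nucleostemin, had the largest differences in fasted mice on CTRL. On fasting on CTRL, 13 of the list were called higher and 23 lower in LWT (16% and 16.5% of all genes), and 20 higher and 9 lower in LKO (16.4% and 19.1%). On fasting in LWT on CTRL, Utp20 fell by 0.89 ± 0.08 and Nolc1 by 0.52 ± 0.10, both acting in the nucleolus, and Ubtf, a factor of ribosomal RNA transcription, rose by 0.76 ± 0.10.

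Of 38 translation factors and related genes, 12 were called higher in LKO and 2 lower in fasted mice on CTRL, against 12.5% and 12.3% of all genes. In fasted mice on HFD 20 were called higher and 2 lower, against 19.1% and 17.7% of all genes. In fed mice 6 were called higher in LKO and none lower on CTRL (10.9% and 10.6% of all genes). For fed mice on HFD the counts were 6 and 4 (16.6% and 16.3% of all genes), so that the number called higher was near the share of all genes. By diet, 12 were called lower on HFD in fed LWT and 12 in fed LKO (11.7% and 6.38% of all genes). These counts depend on the scaling: median scaling and the processed signal gave 20 and 19 higher in LKO in fasted mice on CTRL, 21 and 23 in fasted mice on HFD, 12 and 9 in fed mice on CTRL and 8 and 15 in fed mice on HFD, and 14 and 21 lower on HFD in fed LWT and 19 and 20 in fed LKO. Hnrnpa1 (0.36) and Eif4a1 (0.27) led the rises in fasted mice on CTRL, Eif4a2 (-0.25) and Nap1l1 (-0.22) were the 2 lower ones, and Eef2, which moves the ribosome along the messenger RNA, was lower on HFD in fed LWT by -0.28 ± 0.04. Of the 77 genes of the mitochondrial ribosome, 5 were called higher and 10 lower in LKO in fasted mice on CTRL. These counts were below and near the 12.5% and 12.3% of all genes. On HFD 3 were called higher and 27 lower, against 19.1% and 17.7% of all genes. Under median scaling the counts were 6 and 9 on CTRL and 3 and 23 on HFD. The medians with quantile normalization were -0.05 and -0.07. On fasting, 27, 20, 25 and 31 were called lower and 4, 7, 2 and 3 higher in LWT and LKO on CTRL and LWT and LKO on HFD. Of all genes, 16.5%, 19.1%, 14.7% and 14.6% were called lower and 16%, 16.4%, 13.8% and 13.9% higher in these 4 contrasts. Under median scaling 13, 8, 13 and 22 of the list were called lower and 10, 11, 5 and 3 higher. Mrpl43 (-0.28) and Mrpl49 (-0.25) were among the lower ones in LKO, and Mrpl38 (0.86) among the higher. In a list of 27 genes of the mTORC1 axis, 3 were called higher and 3 lower in fasted LKO mice on CTRL, shares near those of all genes (12.5% and 12.3%). In fasted LKO mice on HFD 6 were higher and 3 lower (19.1% and 17.7% of all genes). In fed LKO mice 8 were higher and 3 lower on CTRL (10.9% and 10.6%), and 5 and 4 on HFD (16.6% and 16.3%). On fasting, 8 were higher and 3 lower in LWT on CTRL (16% and 16.5%), and 4 and 6 in LKO (16.4% and 19.1%). On HFD these were 11 and 5 in LWT (13.8% and 14.7%), and 8 and 3 in LKO (13.9% and 14.6%). Myc, a transcription factor that drives ribosome biogenesis, was higher in fasted LKO mice on CTRL by 1.27 ± 0.34 (adjusted p = 0.0044) and stood at 0.23 ± 0.36 in those on HFD.

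**Figure D5:**
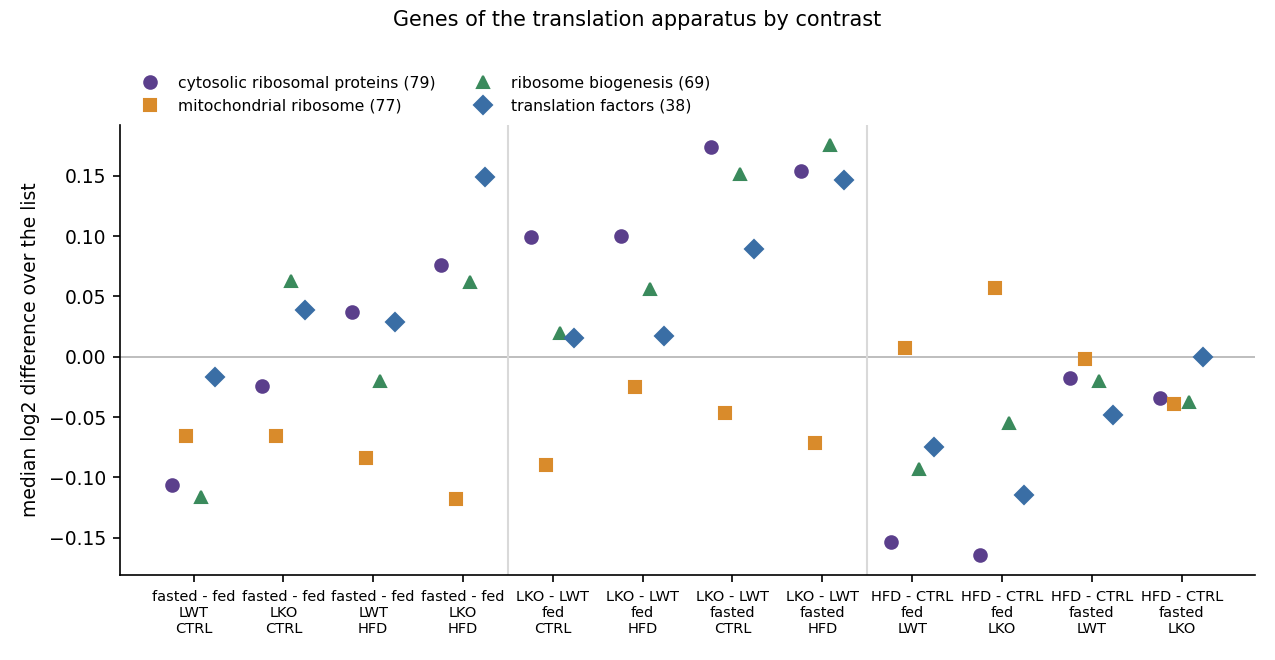
Median log2 difference in 12 contrasts over 79 cytosolic ribosomal protein genes, 77 genes of the mitochondrial ribosome, 69 of ribosome biogenesis and 38 translation factors and related genes. In the genotype contrasts of fasted mice the cytosolic list, biogenesis and translation factors are above 0 and the mitochondrial list is below 0; the fasting medians on CTRL of the cytosolic list are those of quantile normalization and turn above 0 under the other scalings.

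In whole liver, fewer cells of a type and less RNA per cell cannot be told apart. All 9 hepatocyte markers were above background on all arrays. Of them 3, 4, 5 and 2 were called higher and 1, 1, 0 and 0 lower on fasting in LWT and LKO on CTRL and in LWT and LKO on HFD, and 3, 2, 2 and 2 were called higher and 0, 1, 1 and 1 lower in LKO in the genotype contrasts (fed CTRL, fed HFD, fasted CTRL, fasted HFD). Markers of other cells moved with some of the same contrasts. Of 5 cholangiocyte markers, 3, 4, 4 and 4 were called lower in LKO in the 4 genotype contrasts, and the mean over the list in fasted mice on CTRL ran from -0.14 to 0.30 in LWT and from -0.74 to -0.44 in LKO. Of 9 stellate cell and fibroblast markers, 1, 4, 3 and 5 were called lower and 1, 1, 0 and 1 higher in LKO. On HFD 5 of these were higher in fed and 6 in fasted LWT, while on fasting 5, 5, 2 and 4 were lower. Of 8 endothelial markers, 1, 1, 5 and 6 were higher and 1, 2, 0 and 0 lower in LKO in the same 4 genotype contrasts. Of 6 erythroid markers, 4 and 5 were lower on fasting on CTRL in LWT and LKO, and 5 were higher on HFD in fasted LKO. In the genotype contrasts 0, 1, 0 and 0 erythroid markers were higher and 0, 0, 1 and 1 lower in LKO. Of 12 Kupffer cell and macrophage markers at most 3 and of 9 lymphocyte markers at most 2 were called, both directions counted, in any of these 12 contrasts. The part of these cells in the differences of the ribosomal protein genes was not tested.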

How the data were processed

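Liver RNA of 48 mice was hybridised to 1-colour Agilent arrays of 62976 spots, 1 per mouse, on 6 slides, each with all 8 groups, and the slides went through 2 washing batches. The authors scanned them with Agilent Feature Extraction 10.10.1.1 and deposited spot intensity (median, mean, local background) with flags and annotation in other columns, not normalized. They also deposited a table of log2 values that had been filtered, corrected for washing batch and quantile normalized, used here as an alternative.

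Outlier spots (92 to 151 per array) were removed and log2 median signals of the spots of a probe averaged. Probes well above background on at least 5 of 6 arrays of 1 group were kept (30793 of 56605). The washing batch was removed with group means protected, arrays were quantile normalized, and limma 3.58.1 in R 4.3.3 was fitted to 8 group means with array weights (0.354 to 1.72) and empirical Bayes moderation. Benjamini-Hochberg adjustment ran over all probes kept, and a gene was called at an adjusted p of at most 0.05. The fit was tested on simulated data. Differences are in log2, errors are SE of the fit, and 50.1% to 57.4% of probes were above background per array. The number of arrays limits the precision. No spot was saturated among those used (0 saturated spots).

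Replicates are separate mice, and p-values measure the spread between them. Each of 12 contrasts of 2 groups and 6 interactions was fitted. Named members were the 3 largest called rises and falls per fasting, genotype and interaction contrast and the 2 largest per diet contrast, up to 6 called in 3 or more genotype contrasts, the stalk, all paralogues, Rps6, Rpl5 and Rpl11, and of other lists the 2 largest rises and falls with Myc. Genes named outside this rule were chosen after their values were seen, and some members that the rule names are not reported here. The members and lists were chosen with earlier results of these data known.

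Alternatives were the processed signal scaled to its 75th percentile, normexp with an offset of 50, median scaling, 2 other filters, 3 other treatments of the washing batch or slide, a replicate block, equal weights, fewer groups, single batches, the deposited table, the median over probes, a fold over 1.5 and leaving out each array. Replicate numbers were not taken to pair mice: deviations from group means correlated with a median r of 0.01 over 168 pairs of equal number and 0.00 over 840 others.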

Additional observations from a re-analysis of the deposited data

Results flagged for a closer look

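A single mouse stood apart from its group in 8 of 96 groups examined, where about 1 in 20 would by chance (the gap to the nearest mouse divided by the range of the group, set against Dixon's critical value for 6 mice). The 96 groups are the 8 groups for each of 11 members shown by level and for the mean over members. The mean over members of fed LKO replicate 2 on CTRL was 0.28, with the others at 0.08 to 0.14. The same mouse was highest for Rplp0 (15.83, others 15.57 to 15.65) and Rpl12 (15.62, others 15.28 to 15.40), and fed LWT replicate 2 on CTRL was highest for Rplp0 (15.73, others 15.41 to 15.52) and Rpl12 (15.39, others 15.12 to 15.22). Among fed LKO mice on HFD, replicate 3 stood apart for Rps28 (15.78, others 15.54 to 15.63), replicate 6 for Rpl27a (15.20, others 14.88 to 14.98) and replicate 4 for Rps12 (15.17, others 15.42 to 15.56). Without fed LKO replicate 2 on CTRL, the median genotype difference in fed mice on CTRL was 0.08 with 20 members called, and the median diet difference in fed LKO was -0.14.

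Fasting differences were unlike between genotypes or diets by the interaction test in these members. On CTRL the fasting difference was higher in LKO than in LWT by 0.29 in Rps12 and 0.21 in Rps9. It was higher on HFD than on CTRL in LWT by 0.28 in Rpl13, 0.24 in Rpl27a, 0.24 in Rpl28, 0.20 in Rpl29, 0.23 in Rpl41, 0.18 in Rpl7a, 0.21 in Rpl8 and 0.23 in Rps27a. In LKO it was higher on HFD than on CTRL by 0.30 in Rpl10, 0.21 in Rpl15, 0.23 in Rpl17, 0.19 in Rpl22, 0.22 in Rpl27a, 0.21 in Rpl29, 0.20 in Rpl35a, 0.18 in Rpl7a, 0.19 in Rpl9, 0.32 in Rps27 and 0.27 in Rps6. The same values describe a diet difference that is less negative in fasted than in fed mice.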

How the results depend on the processing

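The genotype differences and the diet differences in fed mice kept their direction in the median over members under all alternatives, whereas the fasting differences on CTRL turned with the scaling. Of 1750 values of named members under other settings, 1416 kept direction and call, 320 kept only the direction and 14 turned. Of the latter, median scaling gave 0.0741 for Rpl11, 0.00242 for Rplp1, 0.0550 for Rplp2 and 0.0177 for Rps27l (fasting in LWT on CTRL), 0.0170 for Rpl41 and 0.00201 for Rps27l (fasting in LKO on CTRL) and 0.0208 for Rpl41 (fasting in LKO on HFD). The processed signal gave 0.0621 for Rpl11, 0.0548 for Rplp2 and 0.000546 for Rps27l, 0.0461 for Rpl41 and 0.0132 for Rps27l, 0.00204 for Rpl41, and -0.00232 for Rps27l (diet in fed LWT). The cause was not tested.

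Counts of members called are given in the order fasting in LWT CTRL, LKO CTRL, LWT HFD and LKO HFD. Median scaling gave 5, 25, 39 and 52, the processed signal 7, 35, 44 and 47, the 2 groups of each contrast alone 21, 8, 6 and 12, washing batch 1 alone 8, 4, 2 and 7 and batch 2 alone 9, 3, 2 and 1. For genotype in fed mice on CTRL and HFD these gave 70 and 56, 58 and 67, 11 and 18, 0 and 2, and 7 and 14, and in fasted mice the batches gave 28 and 12, and 19 and 30. For diet in fed LWT and LKO the batches gave 14 and 12, and 7 and 0, and the groups alone 10 in LKO. For diet in fasted LWT and LKO, median scaling gave 33 and 45, the processed signal 57 and 50, the batches 0 and 0, and 0 and 1, and the groups alone 0 in LWT. Each batch holds fewer arrays. Without a filter the counts were 24, 4 and 18 for fasting in LWT CTRL, LWT HFD and LKO HFD, 35 for diet in fed LKO and 1 in fasted LWT. Equal weights gave 6 for fasting in LWT HFD and 2 for diet in fasted LWT, and the median over probes 18 for fasting in LWT HFD and 9 for diet in fasted LKO. A fold over 1.5 left 0 in every contrast.

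Of the interactions, genotype by fasting on CTRL had 0 calls with equal weights, without a filter, without removing the washing batch and within each batch, and 1 with its groups alone, and on HFD 1 with the median over probes. Genotype by diet in fasted mice had 3 with the median over probes and 1 with median scaling, normexp or the processed signal. Diet by fasting in LWT had 4 with equal weights, 0 with median scaling, 0 without a filter, 5 with its groups alone, 13 with probes above background on all arrays, 1 with the processed signal, 5 with the washing batch as a term, 3 without removing it and 0 within each batch. In LKO it had 7 with the median over probes, 1 with median scaling, 5 without a filter, 3 with its groups alone, 1 with the processed signal and 0 within each batch.

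Equal replicate numbers were not taken as a shared origin, which the labels do not state. Of 48 arrays, 15 correlated best with an array of their own number, and the number to be had by chance was not computed. With the replicate block 7 members were called for fasting in LWT HFD, 0 for genotype by fasting on CTRL and 5 for diet by fasting in LWT, and no other count moved by more than 1.5 times.

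Leaving out 1 array gave 27 to 38, 10 to 15, 7 to 12 and 16 to 33 calls for fasting, 20 to 32 and 23 to 39 for genotype in fed and 54 to 66 and 42 to 53 in fasted mice, 51 to 61, 29 to 59, 2 to 4 and 4 to 9 for diet, 0 to 4 for genotype by fasting on CTRL, 0 to 1 for genotype by diet in fasted mice, and 4 to 10 and 5 to 15 for diet by fasting in LWT and LKO.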
